A study of Mus musculus with 24 samples.

Results

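Kidneys of mice lacking PLD4 were compared with wild-type kidneys at day 5 of unilateral ureteral obstruction (UUO), an operation in which the ureter of 1 kidney is blocked. The comparison used the 8 libraries whose labels give that treatment and day: 4 of genotype PLD4+/+ (here WT) and 4 of genotype PLD4-/- (here KO), out of 24 libraries in the series. Whole kidney tissue was used, and total RNA was made into stranded mRNA libraries. The other libraries, used here to share the estimate of spread and for 2 contrasts of the genotype difference, were WT and KO kidneys at day 0 (control) and at day 10 of UUO, 4 in each group. All 8 day 5 kidneys had been obstructed, so each WT value is that of an injured kidney. The labels give no age, sex, strain, knockout allele, deleted exon, animal identity or surgery date. Nothing in them says whether the 4 libraries of a group came from separate animals, so the p-values measure the spread between these libraries, which may in part be technical. Of 23955 genes in the table, 15080 had enough counts to be tested.

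PLD4 is a transmembrane protein of endosomes and lysosomes. Despite its membership of the phospholipase D family, it acts as a 5′ exonuclease that degrades single-stranded DNA and RNA, and so limits the ligands that reach the nucleic acid sensors TLR7 and TLR9. Myeloid and dendritic cells are its main sites of expression. In whole kidney RNA, fewer such cells and less RNA per cell cannot be told apart. UUO is a widely used model of kidney fibrosis, in which tubules are injured, leukocytes enter the tissue and matrix-producing fibroblasts accumulate.

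Total counts ranged from 12455355 to 22542866 in the day 5 libraries, and the lowest of the series was 9800888. Kidney markers were present in all 8: Umod, the major protein secreted by the thick ascending limb, ran from 2525 to 5009 CPM (gene counts scaled to the library total), and Aqp2, the water channel of the collecting duct, from 93.3 to 158 CPM. Xist gave 1 to 7 counts and the Y-linked gene Ddx3y 63.9 to 91.4 CPM, so the day 5 libraries did not differ in these sex-linked transcripts. Among the libraries outside day 5, 3 stood apart. KO day 0 replicate 4 had 11271 counts of Xist and 5 of Ddx3y, unlike the other 7 day 0 libraries. In WT day 10 replicates 2 and 3, Serpina1a was at 0.507 and 0.544 CPM, against 17.0 and 28.1 CPM in the other WT day 10 libraries, and summed macrophage markers were at 7905 and 11284 CPM, against 2102 and 1904 CPM. Values without these libraries are given beside several of the day 0 and day 10 results below.

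The 8 day 5 libraries also split by a feature that crosses genotype. A score of 15 nuclear-retained RNAs and splicing kinases (the mean of their log2 CPM) was 7.53, 7.26 and 7.80 in WT replicates 1 to 3 and 7.18 in KO replicate 1. It was 5.81 in WT replicate 4 and 5.86, 5.93 and 5.68 in KO replicates 2 to 4. Malat1, an abundant RNA kept in the nucleus, ranged from 1193 to 2289.9 CPM in the first set and from 253 to 324 CPM in the second. The first principal component of the 8 libraries held 57.6% of their variance and put the same 4 libraries on each side. Since the high set held 3 WT and 1 KO libraries, the split is partly aligned with genotype. Counts over all genes, and those of several lists, are therefore also given without WT replicate 4 and KO replicate 1, and with the score as a covariate. Without WT replicate 4 and KO replicate 1, every WT library left is in the high set and every KO library left in the low set. Genotype and the split cannot be told apart in that setting. These settings were chosen after the data had been seen, and the part of the split in any single difference was not tested.

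**Figure D1:**
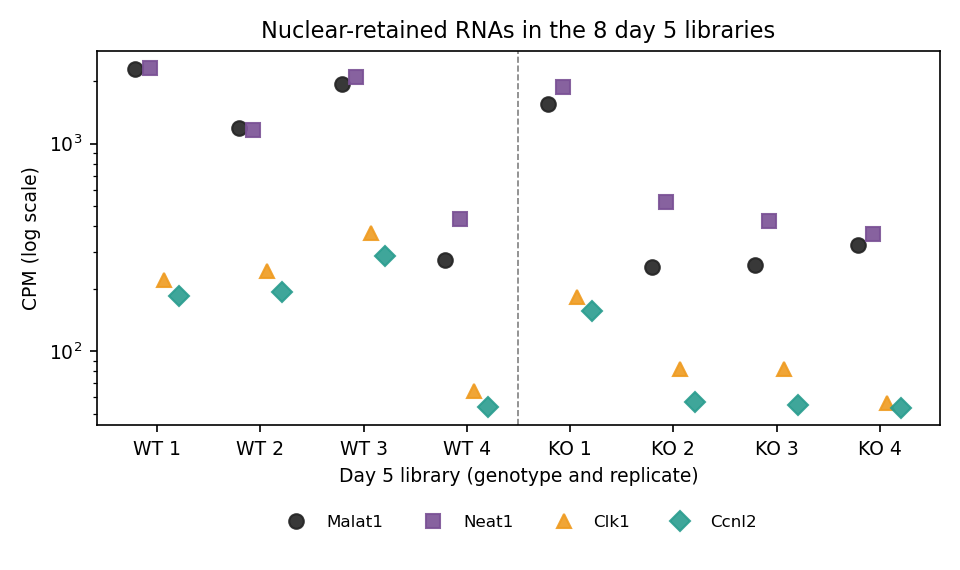
CPM on a log axis of Malat1, Neat1, Clk1 and Ccnl2, 4 members of the nuclear-retained list, in each day 5 library (WT replicates 1 to 4 left of the dashed line, KO replicates 1 to 4 right of it). All 4 RNAs are high in WT 1, WT 2, WT 3 and KO 1, where Malat1 is at least 1193 CPM, and low in WT 4, KO 2, KO 3 and KO 4, where it is at most 324 CPM.

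Pld4 itself was lower in the KO libraries but not absent. Its level was 50.9, 47.6, 48.2 and 46.6 CPM in WT replicates 1 to 4, and 32.6, 18.9, 13.4 and 16.4 CPM in KO replicates 1 to 4. The groups did not overlap, and the highest KO value was that of replicate 1, the KO library in the high nuclear-RNA set. The log2 fold change was -1.25 ± 0.27 (SE, here and below; 4 libraries per group), with an adjusted p of 0.0724 in edgeR's quasi-likelihood test, short of the 0.05 threshold. The adjusted p was 0.0105 without WT replicate 4 and 0.00882 without KO replicate 1, 0.0164 without WT day 10 replicates 2 and 3, and 0.493 with the nuclear-RNA score as a covariate. Without any 1 of the other 6 day 5 libraries it was 0.163 to 0.303. The labels name no allele or deleted exon, and which part of Pld4 the reads of KO kidneys come from was not tested.

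At day 0, Pld4 was low in both genotypes, at 5.10 to 8.25 CPM in WT and 6.70 to 12.6 CPM in KO libraries, with a log2 difference of 0.50 that did not pass (adjusted p = 0.438). The genotype difference at day 5 was lower than that at day 0 by -1.75 ± 0.39 on the log2 scale (interaction, adjusted p = 0.0439; 0.0442 without KO day 0 replicate 4). At day 10 the difference was -1.13 (adjusted p = 0.0331), and -0.74 (adjusted p = 0.715) without the WT day 10 libraries that stood apart. The difference between days 5 and 10 was -0.12 (adjusted p = 0.932).

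**Figure D2:**
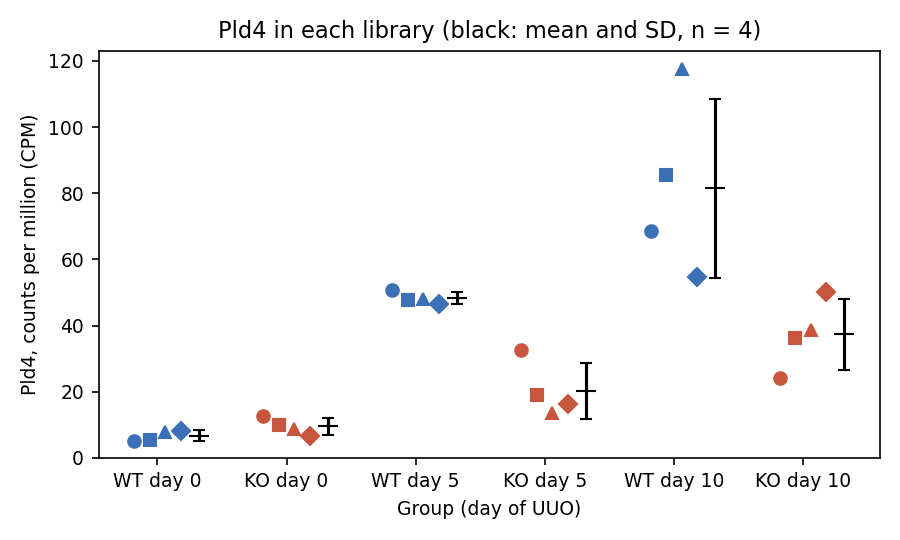
Pld4 in CPM (linear axis from 0) in all 24 libraries, by group, with the symbol shape giving the replicate number and the black bar and whisker the group mean and SD (n = 4). At day 5 the 4 WT libraries sit between 46.6 and 50.9 CPM and all KO libraries lie below them, while at day 0 both genotypes are under 13 CPM.

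Other genes of the pathway showed no call at day 5. Among 25 tested genes of endosomal nucleic acid sensing, Pld4 included, 0 passed in edgeR's test, and the list's median log2 difference was 0.05 beside 0.02 over all genes tested. Tlr9, the receptor for unmethylated DNA, was at 4.58, 2.30, 1.04 and 10.0 CPM in WT and 5.19, 8.50, 8.80 and 17.1 CPM in KO libraries, a log2 difference of 1.12 ± 0.49 (adjusted p = 0.328) between overlapping groups. Tlr7, the receptor for single-stranded RNA, differed by -0.20 ± 0.28 (adjusted p = 0.773), and Unc93b1, which carries both receptors to endosomes, by 0.21 ± 0.22 (adjusted p = 0.680). Pld3, the closest relative of Pld4 with the same exonuclease activity, was at 99.3 ± 10.0 CPM (SD) in WT and 103 ± 13.3 CPM in KO libraries, with a log2 difference of 0.05 ± 0.12. Irf3, an interferon-inducing transcription factor, differed by -0.39 ± 0.13 (adjusted p = 0.272). Of the 16 tested genes listed as neighbours of Pld4 on its chromosome, counting Pld4, 0 passed. The list does not hold every gene of that chromosome. Of the 22 genes called at day 5, described below, 5 are on chromosome 12, which also holds Pld4, and 17 are elsewhere. The 5 are Serpina1a, Serpina1d, Serpina1e, Serpina3m and 4930427A07Rik, all but the last of them related serpin genes. The share of all tested genes that lies on chromosome 12 was not counted, so no excess can be read from these calls. Their distance from Pld4 was not examined.

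Across all genes, 22 of 15080 differed between KO and WT at day 5 (adjusted p under 0.05; 0.146% of genes tested), 10 of them higher in KO (0.0663%) and 12 lower (0.0796%). At an unadjusted p under 0.05, 878 genes (5.82%) were higher and 1226 (8.13%) lower. The groups of 20 of the 22 did not overlap. Over all genes, 411 had every KO library above every WT library (2.73%) and 280 every KO library below (1.86%).

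The count of calls depended on which libraries entered. It was 1935 without WT replicate 4, 477 without KO replicate 1, and 3210 (21.1%) without both, among them all 22. Without both, genotype coincides with the split by nuclear-retained RNAs. With the nuclear-RNA score as a covariate it was 9 (0.0597%), 8 of them among the 22. Without WT day 10 replicates 2 and 3 it was 116 (0.758%), and with DESeq2 87 (0.577%). When 1 of the 8 day 5 libraries was left out at a time, 9 of the 22 were called every time: Wdfy1, Pydc3, Map3k6, Sult1a1, Serpina1a, Serpina1e, 1700112E06Rik, 4930427A07Rik and Gm15446. Zbtb16 missed the threshold only without KO replicate 2 (adjusted p = 0.0551). The other 12 lost the call in at least 3 of these fits, with adjusted p values up to 0.217, reached by Scn3a; no sign changed.

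**Figure D3:**
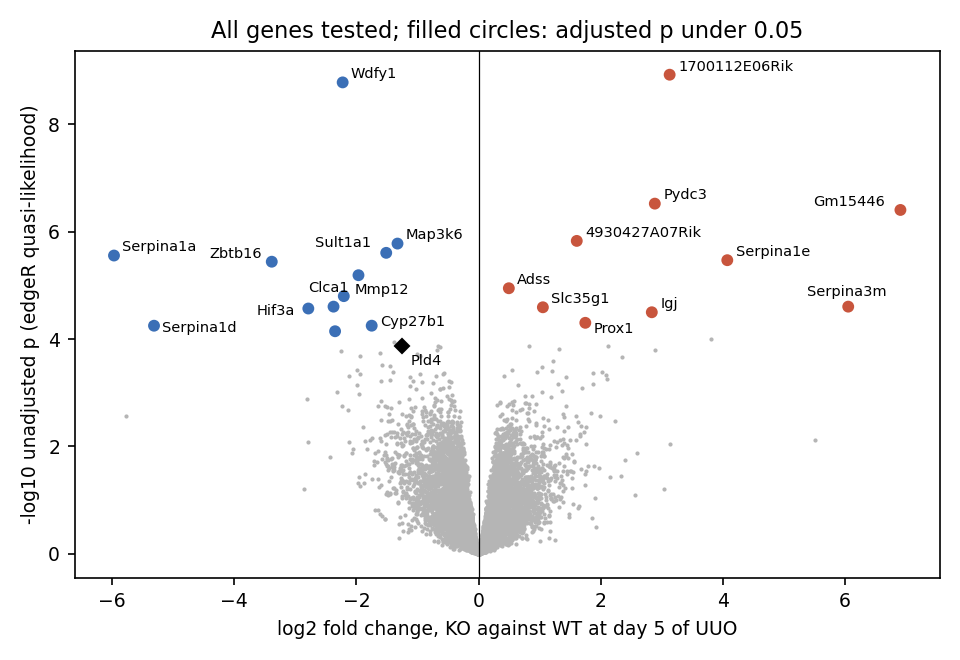
Each point is a gene tested at day 5, with the log2 fold change of KO against WT on the horizontal axis and the -log10 unadjusted p of edgeR's quasi-likelihood test on the vertical axis. Filled circles are the 22 genes with an adjusted p under 0.05 (red higher in KO, blue lower), and the black diamond is Pld4, which lies just below them.

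Among the genes that rose in KO kidneys were Pydc3 and Igj. Pydc3, a pyrin-domain gene of the interferon-inducible PYHIN cluster, was at 0.594, 0.649, 0.346 and 0.546 CPM in WT and 5.13, 3.75, 3.25 and 3.96 CPM in KO libraries. All KO values were above all WT values, a log2 fold change of 2.89 ± 0.39 (adjusted p = 0.00148). Igj, the chain that joins IgM and IgA into polymers in plasma cells, was at 3.86, 6.61, 7.88 and 9.50 CPM in WT and 21.7, 67.0, 86.3 and 24.6 CPM in KO libraries. The groups were apart, with KO replicates 2 and 3 well above the other KO libraries, and the log2 fold change was 2.84 ± 0.54 (adjusted p = 0.0265). Among 14 tested B and plasma cell genes Igj was the only one called, and the list's median log2 difference was 0.30. Both Pydc3 and Igj were also higher in KO kidneys at day 0, by 5.68 and 3.18 (adjusted p = 4.83e-06 and 0.00229).

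Prox1, the transcription factor that sets lymphatic endothelial identity and is also made in some tubule cells, was higher in KO kidneys at day 5. It was at 1.43, 0.944, 0.484 and 2.0 CPM in WT and 2.97, 4.25, 4.19 and 5.26 CPM in KO libraries. No KO library was as low as any WT library, and the log2 fold change was 1.75 ± 0.35 (adjusted p = 0.0394). At day 0 the levels were higher and the difference was -0.42 (adjusted p = 0.602), with an interaction of 2.16 ± 0.47 (adjusted p = 0.0361; 0.0799 without KO day 0 replicate 4). The lymphatic marker Lyve1 was at 1.72 ± 0.398 CPM (SD) in WT and 0.642 ± 0.236 CPM in KO libraries at day 5, a log2 difference of -1.42 ± 0.46 (adjusted p = 0.263). Over the 21 tested endothelial genes the median was -0.05, and Prox1 was the only call.

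Slc35g1 and Adss also rose. Slc35g1, a membrane protein of the solute carrier 35 family, was at 21.6, 30.9, 22 and 24.4 CPM in WT and 40.9, 51.6, 65.9 and 46.9 CPM in KO libraries. The groups were separate, with a log2 fold change of 1.05 ± 0.20 (adjusted p = 0.0239). Adss, which commits inosine monophosphate to the synthesis of AMP, showed the smallest difference among the calls and the tightest groups. It was at 107, 96.4, 101 and 100 CPM in WT and 146, 145, 151 and 128 CPM in KO libraries, a log2 fold change of 0.50 ± 0.09 (adjusted p = 0.0142). Adss was also higher in KO kidneys at day 10, by 0.52 (adjusted p = 0.00544; 0.0784 without WT day 10 replicates 2 and 3).

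Outside the rule for naming genes, 3 transcripts with placeholder symbols were higher in KO kidneys, and they are named here because their values stood out after they were seen. 1700112E06Rik, which shared the lowest adjusted p of the comparison (1.25e-05), was at 0.416, 1.0, 0.83 and 0.818 CPM in WT and 6.24, 8.72, 5.79 and 6.34 CPM in KO libraries. Its log2 fold change was 3.13 ± 0.31 at day 5, 2.93 at day 0 and 2.73 at day 10 (3.38 without WT day 10 replicates 2 and 3). 4930427A07Rik was at 5.41, 4.90, 4.35 and 4.23 CPM in WT and 16.3, 13.2, 14.8 and 13.3 CPM in KO libraries, with a log2 fold change of 1.61 ± 0.24. Gm15446 had 0 counts in the 4 WT libraries and 66 over the KO libraries, which is at least 22.1-fold higher against a floor of 3 counts over the WT group (pooled counts, counting error only). WT libraries also gave 0 CPM of Gm15446 at days 0 and 10.

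The largest falls among the called genes were in Serpina1 genes, which encode alpha-1-antitrypsins, a family of secreted protease inhibitors that includes inhibitors of neutrophil elastase. The mouse copies are nearly identical, so their separate counts are uncertain, and their sequences are given here for that reason. In the GENCODE M21 transcripts the coding sequences of the 5 copies below were all 1242 bases long and pairwise 96.3% to 98.47% identical. The stretch of 60 coding bases (1101 to 1160) in which they differ most, with 18 variable positions, is printed with capitals where a copy differs from Serpina1a. The reactive centre loop that sets which protease is inhibited lies toward the end of the protein.
Serpina1a: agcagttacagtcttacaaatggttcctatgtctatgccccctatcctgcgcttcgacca
Serpina1b: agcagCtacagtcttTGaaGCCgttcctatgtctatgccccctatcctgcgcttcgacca
Serpina1c: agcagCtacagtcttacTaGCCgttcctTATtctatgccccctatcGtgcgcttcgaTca
Serpina1d: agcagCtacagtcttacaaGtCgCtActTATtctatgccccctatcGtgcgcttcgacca
Serpina1e: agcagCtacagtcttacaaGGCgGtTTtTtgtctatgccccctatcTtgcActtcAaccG

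Serpina1a was at 26.0, 35.7, 27.4 and 20.5 CPM in WT and 0.583, 0.386, 0.354 and 0.396 CPM in KO libraries at day 5. The groups were far apart, with a log2 fold change of -5.97 ± 0.94 (adjusted p = 0.00523). Serpina1d was at 72.3, 49.9, 25.3 and 63.6 CPM in WT and 1.52, 0.994, 1.83 and 0.962 CPM in KO libraries, a log2 fold change of -5.31 ± 1.06 (adjusted p = 0.0404), again with no overlap. The third abundant copy, Serpina1b, was lower by less, at 31.7 ± 4.70 CPM (SD) in WT and 14.2 ± 3.30 CPM in KO libraries, and did not pass (log2 difference -1.16 ± 0.36, adjusted p = 0.263). Serpina1c, with under 2 CPM in every day 5 library, differed by -2.81 ± 0.76 (adjusted p = 0.215).

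Serpina1e went the other way in the counts. It was at 0, 0, 0 and 0.227 CPM in WT and 1.22, 1.38, 1.71 and 0.792 CPM in KO libraries, a log2 fold change of 4.07 ± 0.66 (adjusted p = 0.00545). In the deposited FPKM values the sign was reversed (-0.65 on the log2(FPKM + 1) scale), so its direction is uncertain. Summed over the 5 copies, which does not depend on how counted reads were split among them, the level was 113 ± 21.1 CPM (SD, n = 4) in WT and 17.4 ± 4.00 CPM in KO libraries, 6.49-fold higher in WT (exact permutation test, two-sided, p = 0.0286, the smallest that 4 against 4 libraries allow). Whether reads that match several copies were dropped is not known. Serpina1a and Serpina1d make up much of the WT sum and had already been called in these data, so this p adds no separate support. Elane, the gene of neutrophil elastase, had 0 counts in all 8 libraries. Serpina1a was lower in KO kidneys at day 0 as well, by -7.12 (adjusted p = 0.000619), and at day 10 by -5.12 without the WT libraries that stood apart (adjusted p = 6.38e-07) and -4.15 with them (adjusted p = 0.0176).

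**Figure D4:**
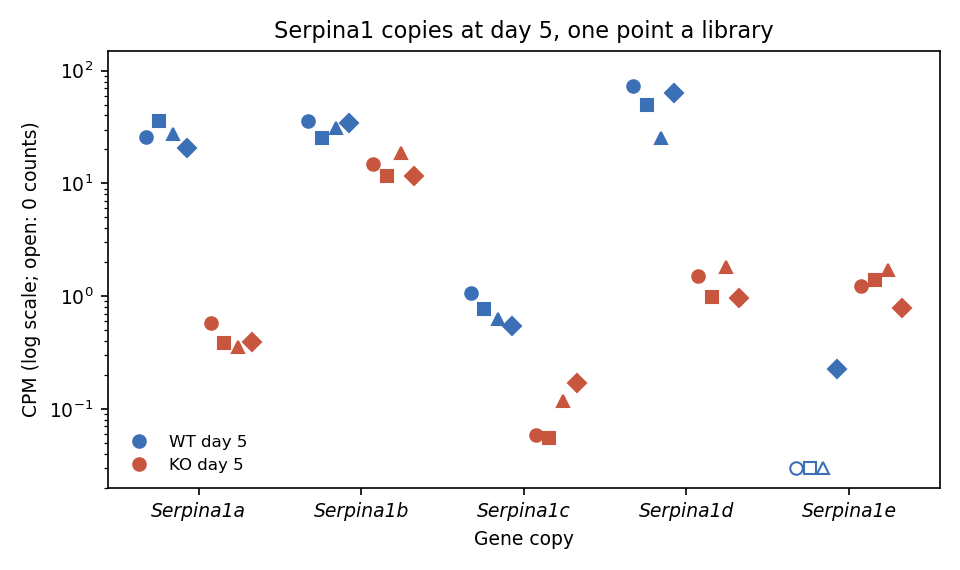
CPM on a log axis of the Serpina1 copies in each day 5 library (blue WT, red KO, symbol shape by replicate number, open symbols at the lower edge for libraries with 0 counts). Serpina1a and Serpina1d are above 20 CPM in every WT library and below 2 CPM in every KO library, Serpina1b is between 11.7 and 35.6 CPM in all 8 libraries, and Serpina1e is at 0 counts in WT replicates 1 to 3.

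Other clade A serpins had differences of both signs. Serpina1f differed by -1.78 (adjusted p = 0.271), Serpina7 by -0.35 and Serpina3i by -0.27. Serpina3m, of the mouse family related to human antichymotrypsin, had 165 counts over the KO libraries and 2 over the WT libraries, a ratio of 82.9 with a counting interval of 22.6 to 691 (95%). Its KO levels were 0.816, 1.99, 4.25 and 2.43 CPM. Serpina3n, another member of that family, was at 5.23, 12, 5.32 and 24.5 CPM in WT and 54.1, 79.3, 139 and 81.1 CPM in KO libraries. Those groups were apart, but the log2 difference of 2.90 ± 0.63 did not pass (adjusted p = 0.0749). Serpina6, which encodes corticosteroid-binding globulin, was at 0.384 ± 0.13 CPM (SD) in WT and 5.61 ± 1.21 CPM in KO libraries (log2 difference 3.81 ± 0.80, adjusted p = 0.0664). Of 32 tested serpins and protease inhibitors, 2 rose and 2 fell (0.0663% and 0.0796% of all genes), and the median was 0.01. In 6 every KO library was above every WT library, and in 5 every KO library was below (2.73% and 1.86% of all genes).

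Among the falls outside the serpins, Wdfy1 had the lowest p. It encodes an endosomal FYVE-domain protein described as an adaptor of TLR3 and TLR4 signalling. Its level was 107, 104, 116 and 121 CPM in WT and 40.8, 17.9, 16.9 and 20.2 CPM in KO libraries. No KO value came near the WT range, and KO replicate 1 was above the other KO libraries. The log2 fold change was -2.22 ± 0.22 (adjusted p = 1.25e-05), with -1.53 at day 0 and -1.20 at day 10, each also called. Without WT day 10 replicates 2 and 3 the day 10 difference was -1.26 (adjusted p = 0.0263).

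Mmp12, the macrophage elastase, was the only metalloproteinase called among 18 tested. Its level was 12.9, 7.49, 12.5 and 4.14 CPM in WT and 1.69, 2.15, 2.89 and 1.24 CPM in KO libraries, with no overlap and a log2 fold change of -2.21 ± 0.40 (adjusted p = 0.0184). The difference at day 10 was -2.52 (adjusted p = 0.00384), and -1.77 (adjusted p = 0.0243) without WT day 10 replicates 2 and 3. Macrophage markers beside it were not lower as a group: over 22 tested, the median was 0.18, and their summed level was 1421 to 1653 CPM in WT and 1740 to 2046 CPM in KO libraries at day 5.

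Cyp27b1, the renal enzyme that makes active vitamin D, was at 45.3, 34.7, 56.5 and 25.7 CPM in WT and 16.8, 10.1, 10.2 and 11 CPM in KO libraries. All KO libraries were below all WT libraries (log2 fold change -1.75 ± 0.35, adjusted p = 0.0404). At day 0, Cyp27b1 was under 9 CPM in every library, with a difference of -0.25. Hif3a, an oxygen-regulated member of the hypoxia-inducible factor family, was at 15.6, 14.2, 12.2 and 8.27 CPM in WT and 2.45, 0.386, 1.30 and 3.11 CPM in KO libraries, a log2 fold change of -2.79 ± 0.52 (adjusted p = 0.0239). Its difference at day 0 was 0.09 (adjusted p = 0.961).

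Map3k6, a stress-responsive kinase upstream of MAP kinases, was at 23.2, 26.8, 27.3 and 20.3 CPM in WT and 10.8, 7.95, 7.14 and 13.0 CPM in KO libraries. The groups were separate and the log2 fold change was -1.33 ± 0.20 (adjusted p = 0.00418). At day 0 its difference was 0.48 (adjusted p = 0.248), and the interaction of -1.81 ± 0.29 passed (adjusted p = 0.00889). The calls outside the naming rule were Clca1 and Tmem181b-ps, whose groups overlapped, and the sodium channel gene Scn3a. In both Clca1 and Tmem181b-ps the overlap was between WT replicate 4, the WT library low in nuclear-retained RNAs, and KO replicate 1, the KO library high in them. Clca1 was at 50.2 CPM in WT replicate 4 and 155 to 229 CPM in the other WT libraries. It was at 55.5 CPM in KO replicate 1 and 31.2 to 35.8 CPM in the other KO libraries. Tmem181b-ps was at 4.09 CPM in WT replicate 4 and 6.30 CPM in KO replicate 1.

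Genes known to be induced by glucocorticoids had mostly negative differences in KO kidneys. Their list, like the others, was chosen with earlier results of these data known, so its counts only describe these libraries. Of 18 tested, 2 fell and 0 rose at an adjusted p under 0.05 (0.0796% and 0.0663% of all genes). At an unadjusted p under 0.05, 7 were lower and 0 higher (8.13% and 5.82%). In 6 of the 18 every KO library was below every WT library (1.86%). The median log2 difference was -0.70, and 17 of the 18 were negative. DESeq2 called 4 members lower (0.338% of all genes), and without WT day 10 replicates 2 and 3 edgeR called 6 (0.386%). The median was -0.92 without WT replicate 4 and KO replicate 1, and -0.69 with the nuclear-RNA score as a covariate.

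Zbtb16, a zinc-finger transcription factor strongly induced by glucocorticoids, was at 54.5, 42.7, 38.2 and 61.2 CPM in WT and 2.91, 3.81, 2.78 and 9.28 CPM in KO libraries. The groups were far apart, with a log2 fold change of -3.39 ± 0.55 (adjusted p = 0.00545). At day 0 its difference was 0.78 (adjusted p = 0.494), and the interaction was -4.17 ± 0.73 (adjusted p = 0.0115). Sult1a1, a phenol sulfotransferase, was at 38.3, 56.3, 59.7 and 30.7 CPM in WT and 19.9, 15, 13.8 and 16.2 CPM in KO libraries. It fell by 1.51 ± 0.24 on the log2 scale (adjusted p = 0.00523), with an interaction of -1.97 ± 0.34 against day 0 (adjusted p = 0.00889).

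Fkbp5, a co-chaperone that dampens the glucocorticoid receptor and is induced by it, was at 222, 257, 190 and 339 CPM in WT and 71.2, 52.4, 72.0 and 134 CPM in KO libraries. The groups did not overlap, yet the log2 difference of -1.61 ± 0.36 stayed above the threshold (adjusted p = 0.0798). Angptl4, an inhibitor of lipoprotein lipase, differed by -1.02 ± 0.26 (adjusted p = 0.168). The metallothionein genes Mt1 and Mt2 differed by -1.07 and -1.32 (adjusted p = 0.263 for each), and Tsc22d3, known as GILZ, by -0.95 (adjusted p = 0.308). Sgk1 and Klf9, which are also glucocorticoid targets, differed by -0.24 and -0.08 between overlapping groups. Serpina6, whose product binds corticosteroids in plasma, had the values given above.

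The genes induced by interferon gamma had positive differences in KO kidneys at day 5, though 0 passed over all genes tested. All 26 tested members had a positive log2 difference (7844 of 15080 over all genes), the median was 1.20, and 16 had every KO library above every WT library (2.73% of all genes). At an unadjusted p under 0.05, 9 were higher and 0 lower (5.82% and 8.13% of all genes). Their mean log2 CPM lay between 3.65 and 4.34 in the WT libraries and between 4.88 and 5.51 in the KO libraries. Without WT day 10 replicates 2 and 3, 4 members were called higher (0.373% of all genes). Without WT replicate 4 and KO replicate 1, 2 were called higher (9.03% of all genes) at a median of 0.92, and with the covariate 0 were called at a median of 1.27. Within the high nuclear-RNA set (KO replicate 1 against WT replicates 1 to 3) and the low set (KO replicates 2 to 4 against WT replicate 4) the medians were 1.55 and 0.64, with 26 and 22 of 26 positive.

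The members with the lowest p were GTPases that act on membranes around intracellular pathogens. Ifi47 was at 19.97, 16.3, 22.3 and 27.3 CPM in WT and 85.1, 78.4, 75.8 and 68.6 CPM in KO libraries, a log2 difference of 1.84 ± 0.53 (adjusted p = 0.238). Tgtp2 was at 5.71, 4.25, 5.67 and 8.27 CPM in WT and 34.5, 21.4, 27.9 and 28.5 CPM in KO libraries, a difference of 2.23 ± 0.67 (adjusted p = 0.255). Every KO library was above every WT library for both genes. Irgm2 was at 51.6, 37.5, 46.9 and 86.9 CPM in WT and 175, 109, 158 and 150 CPM in KO libraries (1.41 ± 0.49, adjusted p = 0.272), and Igtp differed by 1.49 ± 0.63 (adjusted p = 0.316).

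Ifng itself was under 1 CPM in every day 5 library, at 0.131 ± 0.078 CPM (SD) in WT and 0.374 ± 0.15 CPM in KO libraries (log2 difference 1.47 ± 1.14, adjusted p = 0.558). Its receptor genes Ifngr1 and Ifngr2 differed by 0.09 and 0.04. The chemokines Cxcl9 and Cxcl10, which attract activated T cells, differed by 1.32 and 1.18, with all KO libraries above all WT libraries and adjusted p of 0.475 and 0.398.

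Promoter windows of the interferon gamma list were searched for 2 short motifs through which interferons act, and stretches from 3 of the GTPase genes above are shown because they hold both. RefSeq windows (GRCm38.p6, 250 bases before to 50 after the start site) were found for 18 of the 26 tested genes, 20 windows in all. They were searched for the gamma-activated site TTCNNNGAA, and for the core of the interferon-stimulated response element, which is GAAA, any 2 bases and GAAA again, on either strand. The first motif reads the same on both strands. The first was present in 40% of these windows, the second in 55% and either in 65%, against 8.298%, 3.443% and 11.29% of all 32851 windows and 7.101%, 3.107% and 9.796% of the 14322 windows of genes tested. In the 28 windows found for the type I interferon genes the shares were 17.86%, 50% and 57.14%. The windows of Ifi47, Tgtp2, Irgm2 and Igtp, whose values are given above, were looked at one by one. The Ifi47 window held no match. In the other windows, parts of which are printed with the motifs in capitals, the motifs lay 2 bases apart, starting 81, 75 and 45 bases before the start site. A match describes the letters and was not tested for binding.
Tgtp2 (chr11:49064234-49064333, minus strand): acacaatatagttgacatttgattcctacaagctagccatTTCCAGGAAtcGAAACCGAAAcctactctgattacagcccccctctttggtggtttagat
Irgm2 (chr11:58214862-58214961, plus strand): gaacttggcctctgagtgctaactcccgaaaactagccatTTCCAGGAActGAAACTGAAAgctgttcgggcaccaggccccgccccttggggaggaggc
Igtp (chr11:58199471-58199555, plus strand): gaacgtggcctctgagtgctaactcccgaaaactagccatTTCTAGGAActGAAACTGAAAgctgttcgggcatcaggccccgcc

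Antigen presentation genes had mostly positive differences at day 5 without a call in edgeR's test. Of 25 tested, 24 had a positive difference, and the median was 0.62. At an unadjusted p under 0.05, 12 were higher and 0 lower (5.82% and 8.13% of all genes). In 12 of the 25 every KO library was above every WT library (2.73% of all genes). DESeq2 called 1 higher (0.239% of all genes). Without WT day 10 replicates 2 and 3, edgeR called 4 higher (0.373%). It called 2 higher without WT replicate 4 and KO replicate 1 (9.03%, median 0.54) and 0 with the covariate (median 0.83). Cd74, the invariant chain of MHC class II, was at 1369, 1303, 1260.2 and 1580.0 CPM in WT and 2824, 3199.6, 2805 and 3783 CPM in KO libraries. Its groups were well apart, with a log2 difference of 1.19 ± 0.32 (adjusted p = 0.204). Ciita, the regulator that switches on MHC class II genes, was at 23, 14.1, 12.2 and 32.6 CPM in WT and 46.7, 48.4, 51.4 and 69.1 CPM in KO libraries (1.39 ± 0.41, adjusted p = 0.248). B2m, the light chain of MHC class I, was at 908 ± 98.0 CPM (SD) in WT and 1657 ± 74.8 CPM in KO libraries (0.87 ± 0.31, adjusted p = 0.275). H2-DMb2, which loads peptides onto class II, differed by 1.33 ± 0.45.

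Of the 36 tested genes of the type I interferon list, 0 were called at day 5. They had a median log2 difference of 0.00, 19 of them positive. In 7 of the 36 every KO library was above every WT library, and in 0 every KO library was below (2.73% and 1.86% of all genes). At an unadjusted p under 0.05, 3 were higher and 0 lower (5.82% and 8.13% of all genes). The median of this list depended on the library split: it was 0.31 and 0.13 within the high and low nuclear-RNA sets, with 30 and 28 of 36 positive, and 0.30 with the covariate, where 0 were called. It was -0.21 without WT replicate 4 and KO replicate 1, with 2 called higher and 2 lower (9.03% and 12.1% of all genes). Without WT day 10 replicates 2 and 3, 1 was called higher (0.373%). No test compared this list with the interferon gamma list. Among the 3 with an unadjusted p under 0.05 were Lgals3bp (0.76 ± 0.27, adjusted p = 0.275) and the RNA sensor Ifih1 (0.47 ± 0.21, adjusted p = 0.335). Isg15, a ubiquitin-like protein, was at 20.8, 16.9, 24.6 and 16.1 CPM in WT and 25.6, 23.6, 18.2 and 11.2 CPM in KO libraries, a difference of 0.01 ± 0.42. Irf7, the transcription factor that amplifies type I interferon production, was at 70.5, 61.8, 79.0 and 75.1 CPM in WT and 82.7, 64.2, 50.4 and 52.2 CPM in KO libraries (-0.20 ± 0.36, adjusted p = 0.831). The KO libraries spread on both sides of the WT range.

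**Figure D5:**
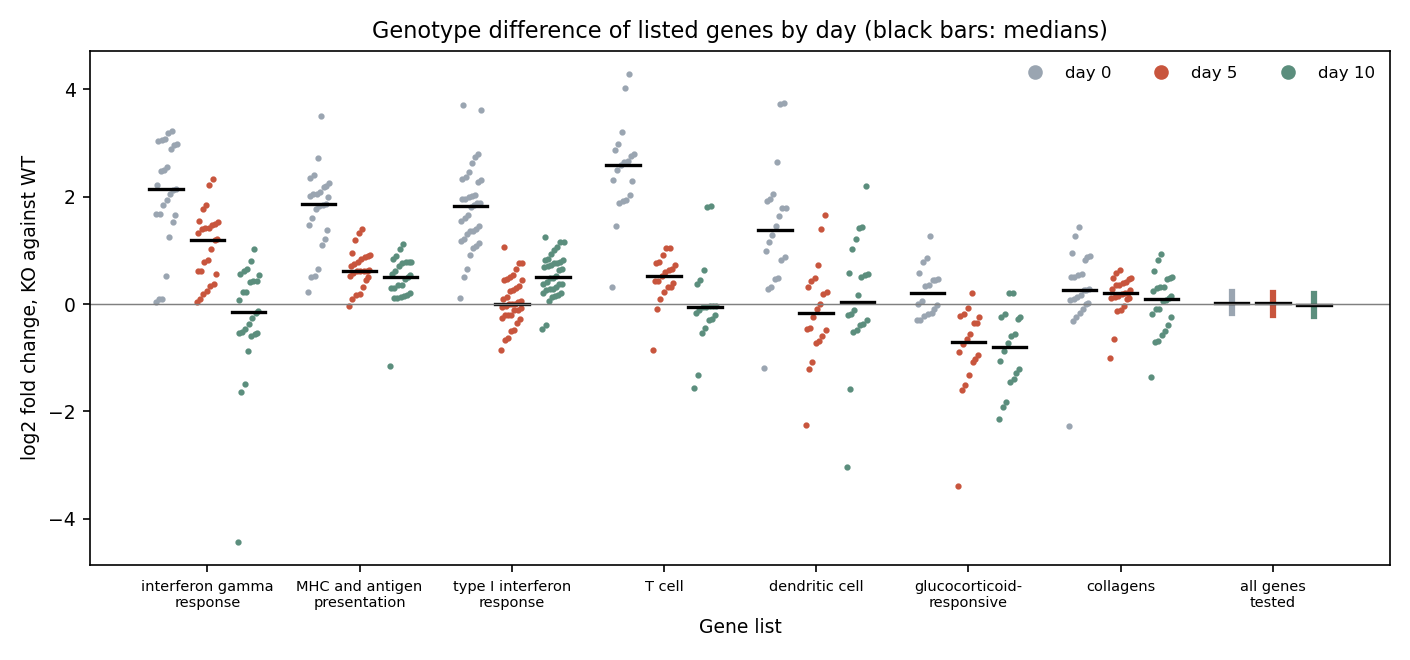
Log2 fold changes of KO against WT (vertical axis) at day 0 (grey), day 5 (red) and day 10 (green) for the tested members of 7 lists, one point a gene, with medians as black bars, and the interquartile range of all 15080 genes at the right. The interferon gamma list has a median of 2.14 at day 0 and 1.20 at day 5, while that of the type I interferon list goes from 1.83 to 0.00.

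The genotype difference at day 5 was then compared with that at day 0, in a contrast of the difference itself. It changed for 85 genes (0.564% of 15080), 80 downward (0.531%) and 5 upward (0.0332%). By the sign of the estimate alone, 59 of the 80 were higher in KO at day 0 and lower at day 5, and 21 were higher at both days. Some of the day 5 estimates were close to no difference, such as -0.009 for Ms4a6c (adjusted p = 0.995). Of the 85, 67 had been called higher in KO at day 0, and 5 were called at day 5. Without KO day 0 replicate 4, the library with Xist counts, 50 genes changed. Without WT replicate 4 the count was 884, without KO replicate 1 it was 244, without both it was 2360, and with the covariate it was 17. Without WT day 10 replicates 2 and 3 it was 645. Scaling factors were 0.764 to 0.870 in the day 0 libraries and 0.976 to 1.16 in the day 5 libraries, and obstruction and time cannot be told apart between these days.

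Of the 36 type I interferon genes, 8 changed downward in that contrast: Mx1, Mx2, Oas1g, Oasl1, Irf7, Irf9, Ifit1 and Usp18. Without KO day 0 replicate 4, Mx1, Mx2, Oas1g and Irf7 stayed under the threshold, while Usp18, Oasl1, Irf9 and Ifit1 did not, at adjusted p of 0.0544, 0.0549, 0.0698 and 0.0936. For Irf7 the day 0 level was 13.2, 18.3, 21.2 and 17.4 CPM in WT and 123, 63.1, 87.9 and 87.5 CPM in KO libraries, so the WT range at day 5 overlapped the KO range at day 0. Its interaction was -2.57 ± 0.52 (adjusted p = 0.0237). Usp18, a brake on interferon receptor signalling, had a difference of 2.03 at day 0 and 0.00 at day 5 (interaction -2.03 ± 0.41, adjusted p = 0.0237). The nucleic acid receptor Tlr7 showed the same order, with 1.79 at day 0 and -0.20 at day 5 (adjusted p = 0.0361; 0.0812 without KO day 0 replicate 4). In this contrast 0 of the 26 interferon gamma genes and 0 of the 25 antigen presentation genes were called. Their medians at day 0 had been 2.14 and 1.87.

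T cell genes gave no call at day 5. Over 19 tested the median log2 difference was 0.53, with 17 positive. It was 0.97 and 0.70 within the high and low nuclear-RNA sets, with 19 of 19 positive in each, 0.98 with the covariate and 0.15 without WT replicate 4 and KO replicate 1, with 0 called in both of these settings. At day 0 it was 2.60 with 12 called higher (3.65% of all genes). Their summed level at day 5 was 69.9 to 125 CPM in WT and 96.2 to 149 CPM in KO libraries, overlapping ranges. Cd8b1, a chain of the CD8 co-receptor, was at 0.713, 2.83, 1.31 and 1.09 CPM in WT and 3.15, 2.98, 3.37 and 2.72 CPM in KO libraries. WT replicate 2 overlapped the KO range, and the log2 difference was 1.04 ± 0.43 (adjusted p = 0.307), against 4.28 at day 0 (interaction -3.25 ± 0.74, adjusted p = 0.0471, and 0.0698 without KO day 0 replicate 4). Cd4 differed by 0.09 ± 0.46. Natural killer and cytotoxic genes had a median of 0.46 over 15 tested, with 0 called.

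Dendritic cell genes were of mixed sign. Of 20 tested, 0 were called, 8 were positive, and 4 lay wholly above and 4 wholly below in KO libraries (2.73% and 1.86% of all genes). DESeq2 called 1 lower (0.338% of all genes). Without WT day 10 replicates 2 and 3, 1 was called higher and 3 lower (0.373% and 0.386%). Without WT replicate 4 and KO replicate 1, 1 was called higher and 4 lower (9.03% and 12.1%), and with the covariate 0. Ccl17, a chemokine of dendritic cells that draws CCR4-bearing T cells, was at 4.58, 2.83, 6.77 and 1.64 CPM in WT and 1.22, 0.718, 0.945 and 0.396 CPM in KO libraries. The groups did not overlap, with a log2 difference of -2.25 ± 0.50 (adjusted p = 0.0774). Itgax, which encodes CD11c, was at 25.6, 16, 20.9 and 19.2 CPM in WT and 13.2, 11.7, 13.6 and 12.1 CPM in KO libraries (-0.69 ± 0.26, adjusted p = 0.282). At day 0 it had been higher in KO by 1.78, and the interaction was -2.48 ± 0.39 (adjusted p = 0.00815). Il12b, a subunit of interleukins 12 and 23, was below 1 CPM in all day 5 libraries and differed by 1.67 ± 0.55 (adjusted p = 0.264).

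The 4 dendritic cell genes that changed between day 0 and day 5 were Itgax, Ccr7, Cd86 and Siglech, each downward. Without KO day 0 replicate 4, Cd86 was at an adjusted p of 0.0544 and the others stayed under the threshold. Ccr7, which guides dendritic cells to lymph nodes, differed by 2.65 at day 0 and -0.45 at day 5 (interaction -3.10 ± 0.46, adjusted p = 0.00471). Genes of type 2 and 17 immunity gave no call in edgeR's test with all libraries, with a median of -0.12 over 14 tested. At an unadjusted p under 0.05, 4 were lower and 0 higher (8.13% and 5.82% of all genes). DESeq2 called 2 lower (0.338% of all genes), as did edgeR without WT day 10 replicates 2 and 3 (0.386%). Without WT replicate 4 and KO replicate 1, 4 were called lower (12.1%). Those with an unadjusted p under 0.05 were Ccl17, Ccl22 (-1.09 ± 0.42), Crlf2 (-0.56 ± 0.24) and Retnla. Retnla, a marker of alternatively activated macrophages, had 78 counts over the WT libraries and 1 over the KO libraries, a ratio of 77.6 with a 95% counting interval of 13.5 to 3104.

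Of the 22 macrophage genes tested, 0 were called at day 5 and 14 had a positive difference. Among them 2 were called higher without WT replicate 4 and KO replicate 1 (9.03% of all genes), at a median of 0.02, and with the covariate 0 at 0.23. Emr1, which encodes F4/80, was at 39.0, 42.5, 28.6 and 64.2 CPM in WT and 64.4, 83.1, 84.4 and 153 CPM in KO libraries, a log2 difference of 1.14 ± 0.34 (adjusted p = 0.255). The lowest KO library only just exceeded the highest WT library. Cx3cr1, the fractalkine receptor, differed by 0.61 ± 0.18 (adjusted p = 0.233), while Mertk, a receptor for dying cells, differed by -0.45 ± 0.17 and Cd163, a haemoglobin scavenger receptor, by -1.48 ± 0.80. Of 26 tested chemokines 0 were called, with a median of -0.03. The neutrophil chemokine Cxcl1 differed by -1.43 ± 0.47 (adjusted p = 0.264), and over 11 neutrophil genes the median was -0.05.

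Genes of fibrosis showed no call between the genotypes at day 5. Col1a1, the main fibrillar collagen of scar tissue, was at 318, 456, 435 and 728 CPM in WT and 417, 480, 918 and 675 CPM in KO libraries, a log2 difference of 0.36 ± 0.42 (adjusted p = 0.711). Col3a1 differed by 0.41 ± 0.43 (adjusted p = 0.683), Fn1, which encodes fibronectin, by 0.09 ± 0.37, and Acta2, an actin gene switched on in myofibroblasts, by 0.32 ± 0.36. The groups of all 4 overlapped. Tgfb1, the profibrotic cytokine, was at 44.2, 43.8, 48.0 and 50.1 CPM in WT and 53.7, 52.6, 51.3 and 52.5 CPM in KO libraries. These groups did not overlap, yet the difference was small (0.17 ± 0.20, adjusted p = 0.705).

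Over the lists, 24 collagens had a median of 0.20, 34 other matrix genes 0.16, 23 myofibroblast genes 0.17 and 25 genes of the TGF-beta pathway 0.14, with 0 called in each. Without WT replicate 4 and KO replicate 1 the medians were 0.32, 0.27, 0.18 and 0.17, with 2 collagens, 2 matrix, 1 myofibroblast and 3 TGF-beta genes called higher and 1 collagen and 1 myofibroblast gene lower. In that setting 9.03% of all genes were called higher and 12.1% lower. With the covariate the collagen median was 0.02 and that of the matrix genes -0.03, with 0 called. At an unadjusted p under 0.05, 1 collagen was higher and 1 lower: Col15a1, a basement membrane collagen, at 0.58 ± 0.21, and Col27a1 at -1.01 ± 0.36. Col27a1 tracked the library split, at 29.1 CPM in WT replicate 4 against 71.1 to 77.8 CPM in the other WT libraries and 59.9 CPM in KO replicate 1 against 21.5 to 23.3 CPM in the other KO libraries. Ltbp2, a matrix protein related to the TGF-beta binding proteins, was at 19.6 ± 1.76 CPM (SD) in WT and 36.5 ± 13.4 CPM in KO libraries (0.90 ± 0.35, adjusted p = 0.293). Ctgf, a TGF-beta target, differed by -0.72 ± 0.34 (adjusted p = 0.356).

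Tubular genes were near the middle of all genes. The median was 0.02 over 32 proximal tubule genes, 0.21 over 28 genes of the loop of Henle and more distal segments, and -0.11 over 29 genes of tubular injury and repair, with 0 called in each. The proximal tubule median was sensitive to the library split, at 0.50 without WT replicate 4 and KO replicate 1 and -0.56 with the covariate. Havcr1, which encodes the injury marker KIM-1, was at 910, 476, 759 and 766 CPM in WT and 825, 1222.5, 975 and 774 CPM in KO libraries, a difference of 0.38 ± 0.24. Krt20, a keratin of injured tubules and urothelium, differed by -1.12 ± 0.28 (adjusted p = 0.158) between overlapping groups.

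Immediate early and clock genes had negative medians without a call. Over 24 immediate early and stress genes the median was -0.43 with 3 positive, and over 18 clock genes it was -0.34. Ciart, a circadian repressor, was at 15.7, 8.02, 7.67 and 7.73 CPM in WT and 4.90, 2.54, 2.36 and 4.53 CPM in KO libraries (-1.45 ± 0.47, adjusted p = 0.263). Per2 differed by -0.95 ± 0.36, and Arntl, which encodes the clock activator BMAL1 and peaks opposite to Per2, by 0.71 ± 0.32. In none of these 3 did the groups overlap. The time of day at which the kidneys were taken is not given in the labels, so a difference in time cannot be told apart from genotype here.

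The nuclear-retained list had a median of -1.03, with all 15 tested members negative, 11 lower at an unadjusted p under 0.05 (8.13% of all genes) and 0 called. None of the 15 separated the genotypes. Clk1, a kinase of splicing factors, was at 220, 244, 371 and 64.1 CPM in WT and 182, 81.9, 81.7 and 56.3 CPM in KO libraries, so WT replicate 4 lay among the low KO libraries and KO replicate 1 near the WT libraries. Within the high and the low set the list's median was -0.30 and 0.07, and with the covariate 0.05. The sets and the covariate were made from this list's own score, so smaller differences there follow from how they were made. Without WT replicate 4 and KO replicate 1, all 15 were called lower, at a median of -1.87 (12.1% of all genes were called lower in that setting). Those libraries were chosen by the same score, so these calls follow in part from that choice.

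Between day 5 and day 10 of UUO, the genotype difference changed for 0 of 15080 genes in edgeR's quasi-likelihood test, with 1277 genes (8.47%) at an unadjusted p under 0.05. DESeq2 called 40, all with a higher difference at day 5. The count was 0 without WT day 10 replicates 2 and 3, 1 without KO replicate 1, 637 without WT replicate 4 and KO replicate 1, and 0 with the covariate. Of the 22 genes called at day 5, 14 were also called in the same direction at day 10, and 10 without WT day 10 replicates 2 and 3. At day 0, 8 of the 22 were called in the same direction: 1700112E06Rik, Wdfy1, Pydc3, Gm15446, Serpina1a, Serpina1d, Serpina1e and Igj, all of which were called at day 10 too with all libraries. Igj lost the day 10 call without WT day 10 replicates 2 and 3 (adjusted p = 0.265). Over all genes, 630 (4.18%) were called at day 0 and 212 (1.41%) at day 10.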

How the data were processed

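Raw gene counts (STAR 2.5, bcl2fastq 2.16 and Cufflinks are named, genome mm9, per the submitters' processing notes) and FPKM values were deposited by the authors for all 24 libraries. The counter, annotation and use of strand are not given in the sources used here. Per the labels' protocols, RNA was extracted with TRIzol for TruSeq stranded libraries.

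Counts as deposited were filtered (filterByExpr over 6 groups, minimum count 10, minimum total 15) and scaled by TMM, which left 15080 of 23955 genes. edgeR 4.0.16 (R 4.3.3) fitted a robust quasi-likelihood model of 6 group means to the 24 libraries (residual degrees of freedom 18). P-values were adjusted by Benjamini-Hochberg over all genes tested, with a threshold of 0.05. CPM values are counts scaled to the TMM-adjusted library total (edgeR's cpm). Folds from sparse counts used pooled counts with exact 95% intervals, which cover counting error only.

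The genes named were Pld4, the protease pair Elane and Serpina1a, the fibrosis genes Tgfb1, Acta2, Fn1, Col3a1 and Col1a1, then up to 12 rises and 12 falls (called, groups apart, mean log2 CPM of at least 1, no placeholder symbol), up to 4 members of each list by lowest p, and members a result turns on. Members and gene lists (49 lists, 952 genes) were chosen with earlier results of these data known. Alternatives were other scaling (RLE), filters, DESeq2 1.42.0, limma 3.58.1 on log2(FPKM + 1) or log2(FPKM + 0.1), a replicate block, and leaving out libraries. The scripts were tested on simulated data. Sequences came from GENCODE M21 and RefSeq (Biopython 1.88, Python 3.11.15), and plots from matplotlib 3.10.9. Values of a few listed genes are not reported here.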

Additional observations from a re-analysis of the deposited data

Results flagged for a closer look

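In 90 groups of 4 libraries examined at day 5 for 44 genes and the nuclear-RNA score, 11 had 1 library far from the other 3; chance alone marks about 1 in 20 such groups, and the groups examined are not independent, since they share 8 libraries. KO replicate 1 was the distant library in 7 of them. It was at 40.8 CPM of Wdfy1 (16.9 to 20.2 in the other KO libraries), 16.8 CPM of Cyp27b1 (10.1 to 11), 6.30 CPM of Tmem181b-ps (2.15 to 2.48), 156 CPM of Ccnl2 (53 to 56.8), 99.2 CPM of Snhg11 (25.9 to 37.3) and 77.7 CPM of Clk4 (28.0 to 29.5). Its nuclear-RNA score was 7.18, against 5.68 to 5.93. Zbtb16 was at 9.28 CPM in KO replicate 4 (2.78 to 3.81 in the others). WT replicate 4 had 47.6 CPM of Ifih1 (28.4 to 31.7), 0.227 CPM of Serpina1e and 0.0909 CPM of Serpina3m, both at 0 in the other WT libraries.

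By edgeR's interaction test, 26 genes are given here whose genotype difference at day 5 differed from that at day 0. Pld4, Zbtb16, Sult1a1, Map3k6, Clca1 and Prox1 were among the 44 genes above. The others are members of the gene lists, included because they passed that test, so 26 is not a share of the genes examined. Genes that were lower in KO at day 5 gave -1.75 for Pld4, -4.17 for Zbtb16, -1.97 for Sult1a1, -1.81 for Map3k6 and -2.73 for Clca1 (log2, day 5 minus day 0), and Prox1 gave 2.16. Interferon and nucleic acid sensing genes gave -2.37 for Ifit1, -2.57 for Irf7, -1.15 for Irf9, -4.26 for Mx1, -2.80 for Mx2, -2.98 for Oas1g, -2.24 for Oasl1, -2.03 for Usp18 and -1.98 for Tlr7. Leukocyte genes gave -3.10 for Ccr7, -2.12 for Cd86, -2.48 for Itgax, -4.33 for Siglech, -1.19 for Cx3cr1, -3.25 for Cd8b1, -3.63 for Eomes and -3.62 for Nkg7. The remaining values were -3.51 for the monocyte chemokine Ccl2, -1.67 for the adhesion molecule Vcam1 and -2.99 for the serpin Serpina10.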

How the results depend on the processing

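The 22 calls at day 5 became 87 with DESeq2, 49 with limma on log2(FPKM + 1), 41 on log2(FPKM + 0.1), 55 with no FPKM filter (67.3% higher, against 45.5%), and 116 without WT day 10 replicates 2 and 3; the cause was not tested. Leaving out 1 day 5 library gave 9 to 1935 calls: 1935 without WT replicate 4 and 477 without KO replicate 1, against 11, 13 and 10 without WT replicates 1, 2 and 3, and 9 and 11 without KO replicates 2 and 3. Without WT replicate 4 and KO replicate 1 together it was 3210, and with the nuclear-RNA covariate 9. The 85 changes against day 0 became 272 with DESeq2, 6 with limma on log2(FPKM + 1) with or without the filter, 645 without WT day 10 replicates 2 and 3, 2360 without both day 5 libraries, 17 with the covariate and 50 without KO day 0 replicate 4. Leaving out 1 day 5 library gave 31 to 884: 54, 50, 40 and 884 without WT replicates 1 to 4, and 244, 31, 37 and 55 without KO replicates 1 to 4. The 0 changes against day 10 became 40 with DESeq2 and 637 without both day 5 libraries, and leaving out 1 gave 0 to 1 (KO replicate 1). The 2-library, covariate and KO day 0 settings were chosen after seeing the data. Serpina1e reversed on FPKM, to -0.65 on log2(FPKM + 1) with and without the filter and -0.81 on log2(FPKM + 0.1). Of 4119 values of 190 genes, 3862 kept direction and side of the threshold, 118 lost the call and 136 gained one. With the replicate block 23 genes were called at day 5 (23 also with the 2 groups alone) and 95 against day 0; same-numbered libraries correlated at 0.265, 0.022, -0.090 and 0.591, so the numbers were not taken as pairs, and only KO replicate 4 matched its own number best. Depth limits genes with few counts, such as Retnla.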
